A study of Homo sapiens with 6 samples.

Results

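The genes described are 7 G protein-coupled receptors with which monocytes sense chemoattractants, taken by symbol from the 26485 genes of the count table. They are the formyl peptide receptors FPR1, FPR2 and FPR3, the complement receptors C5AR1 and C3AR1, and the lipid receptors PTAFR and LTB4R. They were chosen with the difference between withaferin A (WFA) and DMSO in these libraries already known, so their values are a description and carry no test. The RNA came from THP1, a human acute myeloid leukemia cell line of monocytic type, treated for 6 h either with WFA, a steroidal lactone from the plant Withania somnifera, or with the solvent DMSO. There were 3 libraries per group, in DMSO and WFA libraries numbered 1 to 3. The sample labels give the WFA dose as 1 mM and the methods of the study as 1 μM. Both groups are untransfected cells of this single line, grown in the same serum-containing medium and with no other agent named.

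Chemoattractant receptors couple mainly to inhibitory G proteins. Binding of a ligand frees the G protein βγ subunits, which act on phospholipase C and phosphoinositide 3-kinase γ and so start calcium release, Rac activation, directed movement and, in phagocytes, the oxidative burst. Formyl peptide receptors recognize peptides released by bacteria and mitochondria, the complement receptors recognize the fragments C5a and C3a, PTAFR binds platelet-activating factor, and LTB4R binds leukotriene B4. Receptor kinases, arrestins and regulators of G protein signalling end the response.

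Depth was 11006035 to 13872810 counts per library. All 13 monocyte markers were measured, and their summed level was 3080 to 3630 CPM (counts scaled to a common library size with TMM factors) in DMSO and 2740 to 3520 in WFA, with LYZ, the lysozyme gene, the most counted. With WFA, 6 of the 13 markers were lower and 1, the lysosomal protein gene CD68, was higher at an adjusted p under 0.05 (edgeR), while 24.7% of all 12854 tested genes were lower and 25.8% higher. Those with the smallest p-values were CD36, CD33, CD14 and CSF1R, at log2 fold changes of -1.13, -0.85, -1.22 and -0.40. The 4 T cell markers summed to at most 0.869 CPM, and of the 4 erythroid and platelet markers 3, among them HBB, were at 0. The B cell list summed to 3.73 to 4.42 CPM in DMSO and 1.95 to 4.19 in WFA, with PAX5 lower (log2 fold change -1.12). Of the neutrophil list CXCR2 alone had more than 1 count in either group, summing to 22.4 to 31.8 CPM and 11.0 to 19.8 CPM (log2 fold change -0.83). On the epithelial and stromal list, which summed to 355 to 400 and 315 to 333 CPM, PECAM1, which monocytes also express, was lower (-0.28) and the collagen gene COL1A1 rose from 17 to 348 counts per group (4.47). Their part in the receptor values was not tested, and in RNA from bulk cells fewer cells with a transcript cannot be told apart from less transcript per cell.

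RefSeq promoter sequence (GRCh38.p14, 250 bases before to 50 from the start on) was found for 6 of the 7 genes, with 8 annotated starts, and none was found for FPR3. It was searched on both strands for 6 short motifs that bind factors active in myeloid or stressed cells. The motifs were picked with these sequences in view. Positions count back from the first transcribed base, which is 1. The sequence of FPR2, the member with the largest difference, is shown first. FPR2 has 2 annotated starts, and the sequence is that of start 1. The 250 bases before it, at chr19:51760930-51761179 on the plus strand, hold the HSF motif in capitals, at -164 to -157.
FPR2 promoter: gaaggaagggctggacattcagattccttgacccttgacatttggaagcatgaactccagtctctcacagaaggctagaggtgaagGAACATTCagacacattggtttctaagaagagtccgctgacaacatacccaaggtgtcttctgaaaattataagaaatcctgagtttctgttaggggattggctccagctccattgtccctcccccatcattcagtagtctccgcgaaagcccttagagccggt

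The 3 members with an AP-1 motif are shown next, with the motif in capitals and 20 bases on each side, because it was the rarest of the motifs found in more than 1 of the genes. The sites lie at chr19:51751858-51751904 for FPR1, chr12:8066466-8066512 for C3AR1 and chr1:28193881-28193927 for PTAFR, each on the minus strand and read 5′ to 3′. The match lies across the start in FPR1, at -6 to 1. It lies at -133 to -127 in C3AR1 and at -51 to -45 in PTAFR, there counted from start 1 of 2 annotated starts.
FPR1: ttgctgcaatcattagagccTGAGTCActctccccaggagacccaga
C3AR1: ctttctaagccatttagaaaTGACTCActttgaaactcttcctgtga
PTAFR: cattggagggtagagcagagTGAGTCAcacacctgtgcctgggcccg

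The AP-1 motif, TGANTCA, was in 7.71% of the 35116 RefSeq promoters of this length and in 3 of the 6 genes. Such shares are per promoter, while a gene is counted if any of its annotated starts holds a match. FPR2 and PTAFR have 2 starts each, so the counts of genes run high against the shares. The HSF motif, GAANNTTC, bound by heat shock factors, was in 6.77% of promoters and in FPR2 alone among the 6. The MYB motif, AACNG, was in all 6 genes, though only at start 1 in FPR2 and start 2 in PTAFR. It was in 77.2% of promoters, a background too high for it to mark these genes. The PU.1 motif GAGGAA (27.9% of promoters) was in C5AR1 and PTAFR, a loose C/EBP motif TTGNNNAA (33.4%) in LTB4R and PTAFR, and the NF-kB motif, GGGA and CC with any 4 bases between them (25.6%), in FPR2 and PTAFR. In PTAFR the AP-1 and NF-kB matches were at start 1 and the PU.1 and C/EBP matches at start 2. In FPR2 the HSF match was at start 1 and the NF-kB match at start 2. A MYB match shared 1 base with a PU.1 match in C5AR1 and 2 bases with the C/EBP match in LTB4R. C5AR1 held PU.1 and MYB matches and no other motif of the 6. A link between the motifs and the differences with WFA was not tested. A match shows only that these letters are present, and binding was not measured here.

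**Figure D1:**
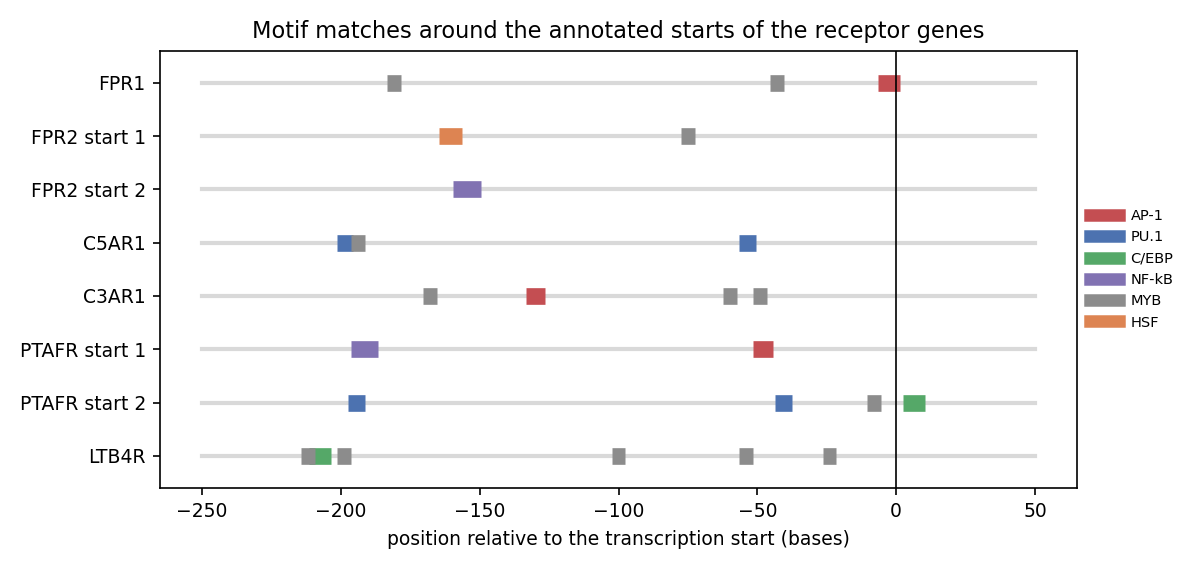
Position of each motif match, in bases from the annotated transcription start (vertical line), on the 8 starts of 6 receptor genes. AP-1 matches (red) are on FPR1, C3AR1 and PTAFR, and grey MYB matches are on all 6 genes.

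The formyl peptide receptors were the members with the largest differences between WFA and DMSO. FPR2, which binds formyl peptides, serum amyloid A and annexin A1, had 52, 48 and 31 counts in the DMSO libraries, or 3.66, 3.79 and 2.58 CPM. In the WFA libraries it had 0, 6 and 4 counts, or 0.00, 0.48 and 0.37 CPM. Every WFA library was below every DMSO library, and the group means were 3.34 ± 0.662 and 0.285 ± 0.253 CPM (SD, n = 3). The fitted log2 fold change of FPR2 was -3.52 ± 0.47 (SE), the rank 3 lowest value of 12854 genes tested. Over the libraries of each group, WFA counts of FPR2 were 8.38% of DMSO counts after scaling, with an exact 95% interval of 3.93% to 15.9% that covers counting error only. The size of this difference depended on single libraries, since the log2 fold change was -2.93 without WFA replicate 1, the library at 0, and -4.19 without WFA replicate 2.

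FPR1, the high-affinity receptor for bacterial formyl peptides, had 25, 19 and 21 counts in DMSO, or 1.76, 1.5 and 1.75 CPM. In WFA it had 7 counts in each library, or 0.572, 0.564 and 0.651 CPM. The groups did not overlap, at 1.67 ± 0.147 and 0.596 ± 0.0484 CPM (SD, n = 3). Their coefficients of variation of 8.78% and 8.13% were below the 21.5% and 37.8% expected from counting alone, so these SDs understate the error. WFA counts of FPR1 were 35.5% of DMSO counts after scaling, with an exact 95% interval of 20.6% to 58.8% that covers counting error only. The log2 fold change was -1.48 ± 0.32. FPR3, a receptor with little response to formyl peptides, had 4, 10 and 7 counts in DMSO and 1, 0 and 0 in WFA. FPR3 was too low to be fitted. Its WFA counts were 5.23% of DMSO counts after scaling, with an exact 95% interval of 0.126% to 32.5%. The counts of 0 in WFA replicates 2 and 3 have exact 95% upper limits of 0.297 and 0.343 CPM.

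The summed level of the 3 formyl peptide receptors was 5.70, 6.08 and 4.92 CPM in DMSO and 0.653, 1.05 and 1.02 CPM in WFA. The makeup of that sum differed as well. FPR2 gave 64.2%, 62.3% and 52.5% of formyl peptide receptor counts in the DMSO libraries, where it was the most counted of the 3. In the WFA libraries it gave 0.00%, 46.2% and 36.4%, and FPR1 was the most counted of the 3 there, resting on 8 to 13 counts per library in all. The genes lie side by side on chromosome 19 (hg38), FPR1 at 51745172 to 51804110 on the minus strand, FPR2 at 51752026 to 51770526 and FPR3 at 51795163 to 51826189 on the plus strand (GENCODE 29). The FPR1 span crosses the others without sharing an exon base. FPR2 and FPR3 share 14 windows of 50 bases in their longest coding transcripts, 0.544% and 0.545% of each, so few reads could be misassigned between them.

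Of the complement receptors, C5AR1 was higher with WFA on average and C3AR1 lower, but neither passed the edgeR threshold. The difference between the 2 genes was not tested. C5AR1, the receptor for C5a (chromosome 19, 47290023 to 47322066, plus strand), had 44, 26 and 55 counts in DMSO and 49, 34 and 50 in WFA, or 3.10, 2.05 and 4.58 CPM against 4.0, 2.74 and 4.65 CPM. The groups overlapped, and replicate 2 was the lowest library and replicate 3 the highest in both. Means were 3.24 ± 1.27 and 3.8 ± 0.973 CPM (SD, n = 3), with a log2 fold change of 0.23 ± 0.29. WFA counts of C5AR1 were 117% of DMSO counts after scaling, with an exact 95% interval of 90.8% to 150%. That interval covers counting error only, and the libraries varied by more than counting, with coefficients of variation of 39.2% and 25.6% against 15.5% and 15% from counting. The WFA library was the higher in 3 of 3 same-numbered pairs, by 0.35, 0.39 and 0.02 on the log2 scale. In the fit without pairs the log2 fold change was -0.02 without DMSO replicate 2 and 0.54 without DMSO replicate 3, and with the replicate block over all 6 libraries it was 0.25.

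C3AR1, the receptor for C3a (chromosome 12, 8058302 to 8066471, minus strand), had 30, 27 and 29 counts in DMSO, or 2.11, 2.13 and 2.42 CPM. In WFA it had 18, 13 and 20 counts, or 1.47, 1.05 and 1.86 CPM. The groups did not overlap, though WFA replicate 3 came close to the DMSO libraries. Means were 2.22 ± 0.171 and 1.46 ± 0.407 CPM (SD, n = 3) and the log2 fold change was -0.61 ± 0.28. The gene of a second C5a receptor, C5AR2, lies next to C5AR1 and had 12, 10 and 6 counts in DMSO and 1, 2 and 1 in WFA. C5AR2 signals poorly through G proteins. It gave 21.4%, 27.8% and 9.84% of the counts of the C5a receptors in DMSO and 2%, 5.56% and 1.96% in WFA, all below the DMSO libraries.

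The lipid receptors were both lower with WFA on average, to different extents. PTAFR, the platelet-activating factor receptor (chromosome 1, 28147166 to 28193936, minus strand), had 59, 56 and 34 counts in DMSO, or 4.15, 4.42 and 2.83 CPM. In WFA it had 26, 19 and 22 counts, or 2.12, 1.53 and 2.05 CPM. The groups did not overlap, and DMSO replicate 3 was the closest to WFA. Means were 3.8 ± 0.85 and 1.90 ± 0.323 CPM (SD, n = 3), a log2 fold change of -1.01 ± 0.26, and the differences of pairs 1, 2 and 3 were -0.92, -1.44 and -0.44 on the log2 scale.

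LTB4R, the high-affinity leukotriene B4 receptor (chromosome 14, 24311450 to 24318036, plus strand), had by far the most counts of the 7 genes, at 270, 316 and 316 in DMSO and 210, 250 and 206 in WFA. These were 19.0, 25 and 26.3 CPM against 17.2, 20.1 and 19.2 CPM. The groups overlapped, since DMSO replicate 1 lay below WFA replicates 2 and 3, yet the WFA library was lower in 3 of 3 same-numbered pairs. Means were 23.4 ± 3.9 and 18.8 ± 1.52 CPM (SD, n = 3), and the log2 fold change was -0.31 ± 0.14. LTB4R and its low-affinity relative LTB4R2 share 355 exon bases on the same strand, 7.95% of those of LTB4R, and reads there cannot be assigned with certainty.

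**Figure D2:**
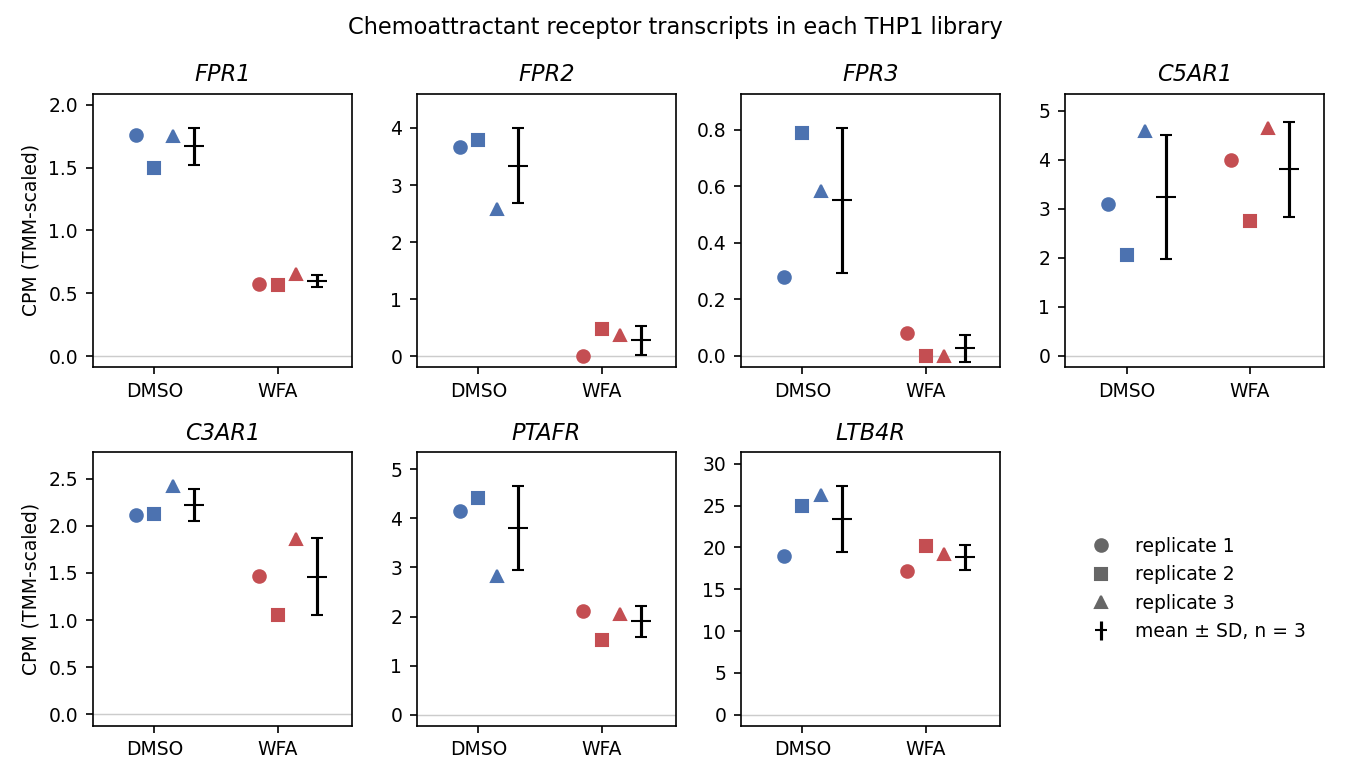
Level of each receptor in every library, in TMM-scaled CPM on a linear axis of its own for each gene, with the mean ± SD of 3 libraries in black. WFA libraries (red) lie below all DMSO libraries (blue) for FPR1, FPR2, FPR3, C3AR1 and PTAFR, and overlap with them for C5AR1 and LTB4R.

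In all, 5 of the 7 receptors had every WFA library below every DMSO library, a pattern seen in 28.5% of all tested genes. At an adjusted p under 0.05 (edgeR, no block), FPR1, FPR2 and PTAFR were lower and none was higher, against 24.7% of all tested genes lower and 25.8% higher. With the replicate block LTB4R was lower as well, while 3708 of the 12854 tested genes were lower and 3877 higher. Nothing is read from these counts, because the genes were chosen on the same contrast, FPR1 and FPR2 passed the filter on low counts through the DMSO libraries alone, and FPR3 failed it. The order of the differences from most to least negative was FPR2, FPR1, PTAFR, C3AR1, LTB4R and C5AR1. Standard errors overlapped between neighbours in this order from FPR1 to LTB4R, but not between FPR2 and FPR1 or between LTB4R and C5AR1. Differences between receptors were not tested.

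**Figure D3:**
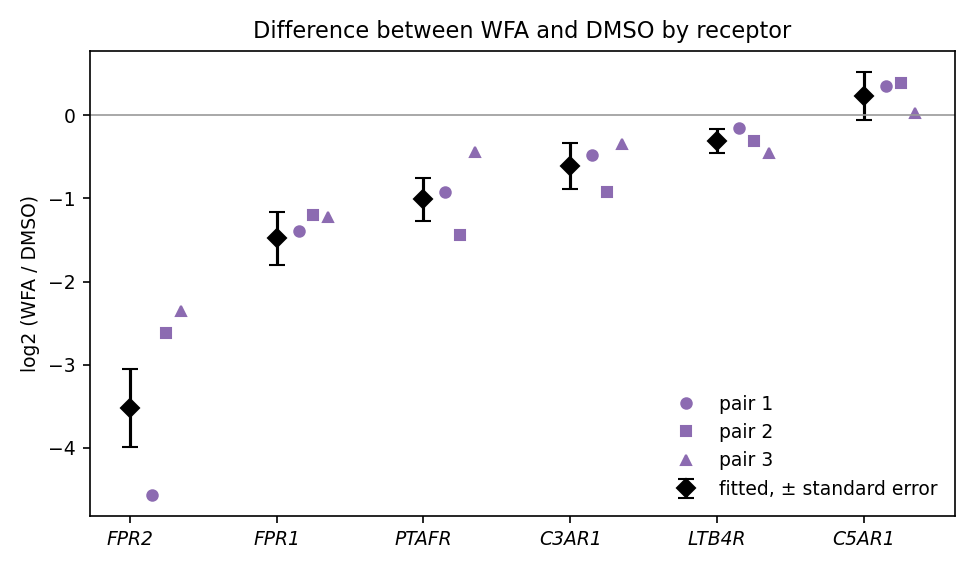
Difference between WFA and DMSO on the log2 scale for the 6 receptors that could be fitted. Black diamonds are the fitted values with their standard error and purple symbols the same-numbered pairs (log2 CPM with a prior count of 2). FPR2 is at -3.52 and C5AR1 at 0.23.

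Per kilobase of the longest coding transcript, LTB4R was the highest of the 7 in DMSO, at 5.70 ± 0.949 CPM per kb (SD, n = 3). C5AR1 (1.40 ± 0.55), FPR2 (1.28 ± 0.253) and C3AR1 (1.06 ± 0.0817) followed, with library values that overlapped between neighbours. FPR1 (0.85 ± 0.0746) and PTAFR (0.847 ± 0.189) did not differ from each other beyond their spread, and FPR3 (0.21 ± 0.0976) was the lowest. In WFA the order was LTB4R (4.58 ± 0.37), C5AR1 (1.64 ± 0.421), C3AR1 (0.699 ± 0.195), PTAFR (0.423 ± 0.0719), FPR1 (0.303 ± 0.0246), FPR2 (0.109 ± 0.0966) and FPR3 (0.0104 ± 0.018). There the library values overlapped between FPR2 and FPR3 but between no other neighbours. The coefficient of variation of FPR1 was below counting error (8.13% against 37.8%), so its gap to PTAFR is not secure. By mean, FPR2 was at place 6 against place 3 in DMSO, where its library values overlapped with those of C5AR1 and C3AR1. The place in DMSO also depends on the length used, for FPR2 2621 bases, while its annotated exons hold 3700. LTB4R held 60.9 ± 4.49% of the members' counts in DMSO and 70.1 ± 5.15% in WFA, while their summed level was 38.2 ± 3.74 and 26.9 ± 1.73 CPM. Compared with all tested genes the receptors were low, since only LTB4R had more than 15.6% of tested genes below its average level, with 43.8%.

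**Figure D4:**
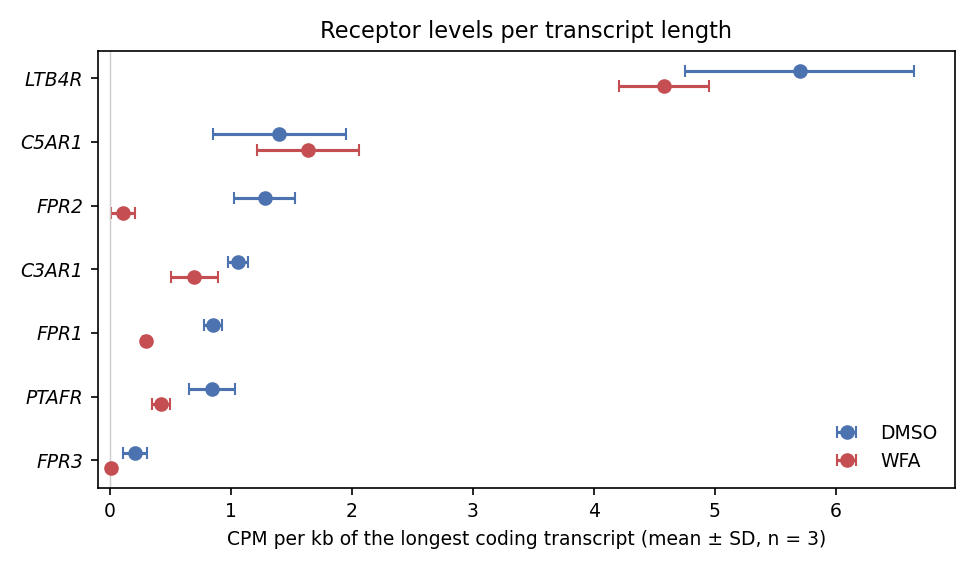
Mean level of each receptor per kilobase of its longest coding transcript, in CPM per kb with the SD of 3 libraries, for DMSO (blue) and WFA (red). LTB4R lies apart at 5.70 and 4.58, and FPR2 moves from 1.28 to 0.109.

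The nearest genes on either side of the receptors were compared to see whether the differences extended to their surroundings. Of the neighbours that are not receptors listed above, ZNF577 beside FPR3 (log2 fold change -0.09 ± 0.16, adjusted p = 0.654), NECAP1 beside C3AR1 (0.08 ± 0.14, adjusted p = 0.666) and DNAJC8 beside PTAFR (0.01 ± 0.08, adjusted p = 0.907) did not pass the edgeR test. FOXJ2, on the other side of C3AR1, rose from 20.4 ± 0.231 to 30.9 ± 1.03 CPM (SD, n = 3; 0.60 ± 0.11, edgeR adjusted p = 0.000246). INAFM1, next to C5AR1, was at 1.28 ± 0.0999 CPM in DMSO and 2.17 ± 0.184 CPM in WFA (0.75 ± 0.27, edgeR adjusted p = 0.0279). This call was lost in 7 of 13 alternatives, namely DESeq2 (adjusted p = 0.131), no filter on low counts (edgeR adjusted p = 0.0544) and leaving out any single library but WFA replicate 3 (edgeR adjusted p = 0.0557 to 0.0767). LTB4R2 and ADCY4, on either side of LTB4R, did not pass the test, at -0.18 ± 0.39 (edgeR adjusted p = 0.73) and 0.42 ± 0.27 (edgeR adjusted p = 0.208). Apart from C5AR2, described above, the other adjacent annotated genes had no row in the table.

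Genes with the profile over the 6 libraries nearest to each receptor were sought among 11716 genes, by the root-mean-square difference of log2 CPM centred on each gene. They were ZNF850 (0.06) and NOCT (0.09) for FPR1, FAM135B (0.57) and NAV3 (0.60) for FPR2, and LRRC20 (0.11) and ZNF114 (0.14) for PTAFR. For C3AR1 they were WEE1 (0.10) and TXNRD3 (0.12), for C5AR1 CAMKV (0.09) and MLLT4 (0.12), and for LTB4R THAP10 (0.03) and OGT (0.03). FPR2 had no close match, as the nearest gene differed from it by 0.57, and the others had one within 0.11. Few genes differed as much as FPR2, which ranked 3 from the lowest log2 fold change. With 0, 6 and 4 counts in the WFA libraries its log2 values also carry large counting error. The distance therefore does not show that FPR2 has a profile of its own. WFA counts of FPR1 (7 in each library) and C3AR1 (13 to 20) were low as well, so their near matches also carry counting error.

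The rest of the pathway was described with 6 gene lists that hold 118 genes, of which 94 were tested. By edgeR, with an adjusted p under 0.05, 17 rose with WFA and 37 fell, or 18.1% and 39.4% of those tested, against 25.8% and 24.7% of all genes. The median log2 fold change was -0.19 over the lists and 0.02 over all tested genes.

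Of 25 other chemoattractant and eicosanoid receptors 16 were tested, 5 of which were higher and 7 lower, with a median log2 fold change of -0.35. P2RY2, a nucleotide receptor that guides phagocytes to ATP, fell from 116 ± 15.8 to 32.5 ± 4.49 CPM (SD, n = 3; log2 fold change -1.84, edgeR adjusted p = 1.58e-08). PTGER4, a prostaglandin E2 receptor, fell from 59.6 ± 4.5 to 36.5 ± 3.36 CPM (-0.71, edgeR adjusted p = 4.33e-05). In the other direction, the lysophosphatidic acid receptor LPAR1 rose from 17.2 ± 2.34 to 36.4 ± 3.47 CPM (1.08, edgeR adjusted p = 5.31e-06) and GPR35 from 4.54 ± 0.61 to 10.2 ± 0.693 CPM (1.16, edgeR adjusted p = 5.26e-05). For all 4 the groups did not overlap.

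Of 22 ligands and enzymes that make ligands, 15 were tested, and 3 were higher and 2 lower (median 0.16), or 5 and 4 with a term for the replicate block. ANXA1, which encodes annexin A1, a ligand of FPR2, rose from 291, 277 and 331 CPM in the DMSO libraries to 1050, 817 and 1120 in the WFA libraries (log2 fold change 1.73, edgeR adjusted p = 2.72e-08). HEBP1, the source of an FPR3 ligand peptide, rose from 19.7 ± 1.7 to 33.0 ± 4.07 CPM (SD, n = 3; 0.74, edgeR adjusted p = 0.000152). In the same WFA libraries the counts of FPR2 and FPR3 were lower. ALOX5AP, which presents arachidonic acid to 5-lipoxygenase for leukotriene synthesis, fell from 49.9 ± 3.73 to 34.3 ± 4.47 CPM (-0.54, edgeR adjusted p = 0.000853), and LPCAT4, a lysophospholipid acyltransferase, from 11.3 ± 0.37 to 8.14 ± 0.919 CPM (-0.47, edgeR adjusted p = 0.0152), a call lost without DMSO replicate 1 or WFA replicate 1 (edgeR adjusted p = 0.0509 and 0.0541). The 5-lipoxygenase gene ALOX5, singled out after its values were seen, had 0 counts in all 6 libraries.

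Of 15 enzymes that inactivate the ligands 8 were tested, and 2 were higher and 1 lower (median 0.04). PLA2G7, which degrades platelet-activating factor, fell from 15.7 ± 3.03 to 6.38 ± 2.39 CPM (SD, n = 3; log2 fold change -1.29, edgeR adjusted p = 0.000184). PTGR1, which inactivates leukotriene B4, rose from 31.0 ± 2.47 to 39.3 ± 4.21 CPM (0.34, edgeR adjusted p = 0.0193). CPD, a carboxypeptidase, rose from 219 ± 20.1 to 267 ± 20.1 CPM (0.28, edgeR adjusted p = 0.0214). The rises were small, and neither PTGR1 nor CPD passed the threshold without WFA replicate 1. PTGR1 did not pass without DMSO replicate 3 or WFA replicate 3 either, nor CPD without DMSO replicate 1 or 2.

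Of 34 genes for G proteins and proximal signalling 33 were tested, and 4 were higher and 14 lower (median -0.29). PREX1, a Rac activator that responds to βγ subunits, fell from 214 ± 9.96 to 92.0 ± 18.7 CPM (SD, n = 3; log2 fold change -1.21, edgeR adjusted p = 9.33e-07). PIK3CG, the catalytic subunit of phosphoinositide 3-kinase γ, fell from 129 ± 5.26 to 64.0 ± 8.56 CPM (-1.01, edgeR adjusted p = 1.06e-06). The β subunit gene GNB4 fell by 0.74 on the log2 scale (edgeR adjusted p = 2.64e-05), whereas GNB2 rose by 0.38 (edgeR adjusted p = 0.00311). GNA15, a promiscuous α subunit of hematopoietic cells to which several chemoattractant receptors can couple, rose from 15.3 ± 0.978 to 50.6 ± 9.76 CPM (1.73, edgeR adjusted p = 1.01e-07).

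All 16 genes for receptor desensitisation were tested, and 2 were higher and 10 lower, with a median of -0.63. RGS16, a regulator that speeds GTP hydrolysis on Gα, fell from 13.4 ± 3.13 to 2.88 ± 0.182 CPM (SD, n = 3; log2 fold change -2.21, edgeR adjusted p = 6.65e-07). The receptor kinase gene GRK3, listed as ADRBK2, fell from 45.6 ± 4.35 to 19.3 ± 1.41 CPM (-1.24, edgeR adjusted p = 4.43e-07) and the β-arrestin gene ARRB1 from 81.3 ± 10.1 to 45.4 ± 3.59 CPM (-0.84, edgeR adjusted p = 1.11e-05). RGS2, by contrast, rose from 6.79 ± 0.777 to 35.1 ± 6.4 CPM (2.37, edgeR adjusted p = 1.6e-08). RGS3 rose from 2.08 ± 0.23 to 3.42 ± 0.0609 CPM (0.71, edgeR adjusted p = 0.0164) but had a DESeq2 adjusted p of 0.0682 and an edgeR adjusted p of 0.0553 without DMSO replicate 3.

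All 6 genes of the phagocyte NADPH oxidase, the enzyme of the oxidative burst, were tested, and 1 was higher and 3 were lower (median -0.25), with 2 higher under the replicate block. CYBB, the catalytic subunit, fell from 176 ± 19.0 to 99.3 ± 19.3 CPM (SD, n = 3; log2 fold change -0.82, edgeR adjusted p = 5.72e-05). The cytosolic subunit gene NCF4 fell from 23.2 ± 0.943 to 17 ± 2.35 CPM (-0.44, edgeR adjusted p = 0.00921). NCF1 was lower, from 7.79 ± 1.74 to 2.60 ± 0.0996 CPM (-1.59, edgeR adjusted p = 2.4e-05), but has near-identical pseudogene copies and its counts are uncertain.

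**Figure D5:**
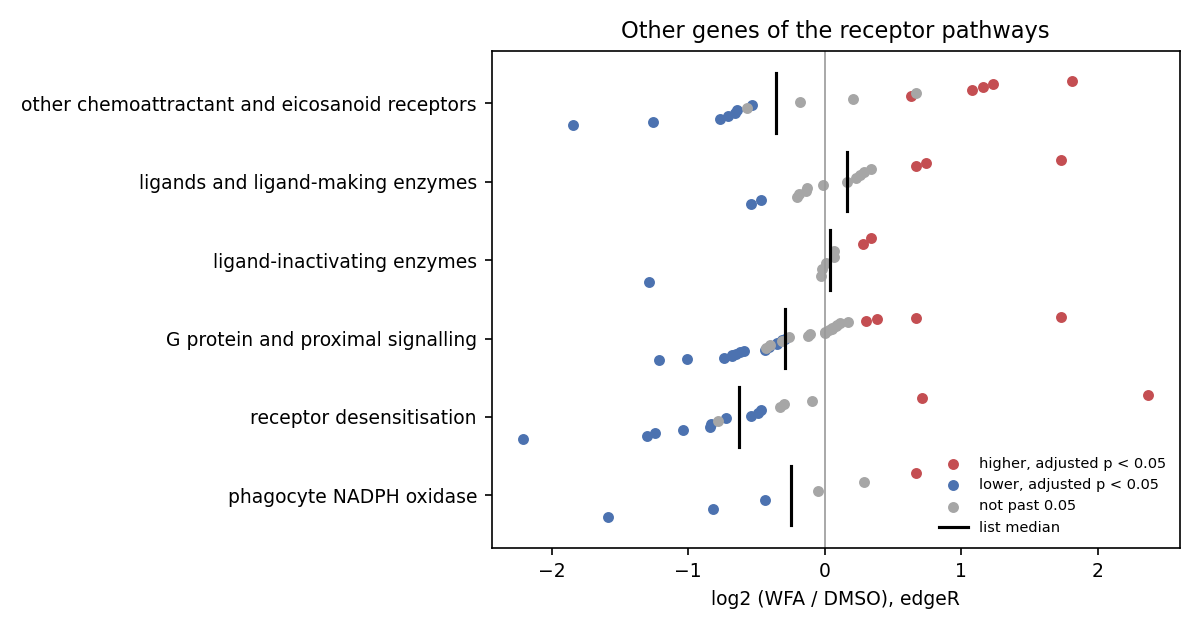
Log2 difference between WFA and DMSO for the 94 tested genes of 6 pathway lists, each point a gene, red for a rise and blue for a fall past an adjusted p of 0.05 (edgeR), with the list median as a black line. Medians run from -0.63 for receptor desensitisation to 0.16 for ligands and ligand-making enzymes.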

How the data were processed

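TruSeq RNA v2 libraries were made from THP1 RNA, 3 for each treatment. The values used are read counts per gene as deposited, whole numbers on which the authors had done no scaling. Per the submitters' processing notes, bcl2fastq 2.19, Trimmomatic, Bowtie2, Picard, featureCounts, DESeq2 and hg38 were used, in roles not given there. How multiply mapped or overlapping reads and strand were treated is not given in the sources used here. The table also holds scaled counts, group means and the authors' fold changes, p-values and dispersions, which were not used.

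Counts were fitted in R 4.3.3 with edgeR 4.0.16 (TMM, filterByExpr with a minimum count of 10, quasi-likelihood test, all 6 libraries, no covariate), and 12854 genes were tested with Benjamini-Hochberg adjustment and a threshold of 0.05. DESeq2 1.42.0, other scalings, no filter, a robust fit, the replicate block and leaving out each library were alternatives. Standard errors of log2 fold changes were derived from the F statistic of the quasi-likelihood test. Count ratios have exact intervals at 95%, which cover counting error only, and 3 counts is the floor. Levels per length used GENCODE 29. Of 26485 genes, 8157 were at 0 in every library. Replicates of a group differed by more than sampling noise (chi-square of 5.92 to 10.9 per gene).

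Replicate numbers pair the libraries. Labels give same-numbered DMSO and WFA libraries the same code, and their deviations from the group means correlated at 0.217, 0.333 and 0.245, against -0.256 to 0.004 for other pairs. The methods describe independent experiments.

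The receptors and gene lists were chosen with earlier results of these data known. Named genes are the 7 receptors, up to 4 genes per list with the smallest p-values past the threshold and up to 2 past it in the other direction, the adjacent genes, and for each receptor the 2 genes nearest in profile (average log2 CPM above 1). Some genes that this rule selects are left out here.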

Additional observations from a re-analysis of the deposited data

How the results depend on the processing

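The log2 fold changes of FPR1, FPR2, C3AR1, PTAFR and LTB4R kept their direction under every alternative run. That of C5AR1 ranged from -0.02 to 0.54 when single libraries were left out. With the replicate block the values of FPR2, LTB4R and C5AR1 were -3.54, -0.31 and 0.25. Among the named genes of the lists and the neighbours the block changed no call. LTB4R lay past the threshold with the block, with total counts in place of TMM, with no filter and without DMSO replicate 1, and FPR3 with no filter. Over the pathway lists, 13 to 21 genes were higher and 32 to 42 lower across the alternatives. Beyond the counts given with the lists, ligand genes higher were 5 without the filter, and ligand genes lower were 1 without DMSO replicate 1 or WFA replicate 1. NADPH oxidase genes higher were 2 without the filter. Ligand-inactivating enzymes higher were fewer than 2 with total counts and without any library but WFA replicate 2, and desensitisation genes higher were 1 with DESeq2 and without DMSO replicate 3. INAFM1 lost its call in 7 of 13 alternatives, CPD and PTGR1 in 4 each, LPCAT4 and RGS3 in 2 each and PECAM1 in 1 (without DMSO replicate 2). Among genes not past the threshold, DNAJC8 (-0.07) and NECAP1 (-0.01) changed sign with total counts, and without single libraries DNAJC8 ranged from -0.04 to 0.05 and LTB4R2 from -0.48 to 0.19. The causes of these changes were not tested. Depth limited FPR3, with at most 10 counts in a library, and with WFA FPR1 and FPR2, with at most 7.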
